A study of Mus musculus with 4 samples.

Results

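Genomic imprinting was examined in 2 lists of chromatin regions from mouse embryonic stem (ES) cells, 1 for the trimethylated lysine 36 of histone H3 (H3K36me3) and 1 for the trimethylated lysine 9 (H3K9me3). The genes were a fixed list of 42 imprinted genes, of which 41 were found by symbol in the GENCODE M1 annotation of the mouse assembly NCBIM37 (mm9), among 37273 annotated genes. The remaining member, the antisense RNA Kcnq1ot1, was placed through its RefSeq promoter sequence, which matched the assembly at a single position. The 41 genes contained 84 of the 31593 H3K36me3 regions and 216 of the 32502 H3K9me3 regions, and a further 4 H3K36me3 regions and 0 H3K9me3 regions lay within 5 kb of a member without entering any. The rule for the list names genes and uses no region or value. The members and the control regions were, however, chosen with earlier results of these data known.

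Both lists came from chromatin immunoprecipitation sequencing (ChIP-seq) of ES cells of strain 129S1/SvImJ, grown with serum and leukaemia inhibitory factor and kept below passage 20. The 4 libraries were H3K9me3 and H3K36me3 from wild-type (WT) cells and from targeted H3.3 G34R cells, with 1 library in each group. In the G34R cells, Cre recombination had left a single H3f3a allele that encoded arginine in place of glycine 34 of the histone variant H3.3, expressed from the endogenous H3f3a promoter, with the other H3.3 gene copies unmutated. Each list pooled WT and G34R cells, without read values. A listed region passed the threshold in WT cells, in G34R cells or in both, which the list does not record, and WT and G34R cells were not compared. Regions have no replicates here, so counts and widths are given without error or test, and the read depth behind each region is unknown. The bins behind the lists were kept only where they lay in genes, so that a control region between genes had little chance to enter.

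Imprinted genes are expressed mainly from the copy inherited from the mother or the father. Their clusters are governed by imprinting control regions, where the DNA is methylated on the copy from a single parent, and many such regions include the promoter of a noncoding RNA or of a paternally expressed gene. In ES cells the zinc finger protein ZFP57 binds the methylated letters TGCCGC there, and its partner KAP1 brings in SETDB1, which deposits H3K9me3 on the methylated copy. H3K36me3 is laid down along transcribed gene bodies by the elongating polymerase complex. These libraries do not tell the parental copies apart, so a gene with both marks may carry them on the same or on opposite copies.

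H3K9me3 lay across the start of most control-region transcripts. Of 15 starts at or beside known control regions that could be searched, 10 lay inside an H3K9me3 region. These were the starts of Airn, Kcnq1ot1, Peg3, Peg10, Nap1l5, Plagl1, Grb10, Impact, Nnat and Nespas, and for each the distance to the region was 0 bp. Those of Grb10 and Impact count as beside, since the control region of these genes lies inside them, away from the main start. In comparison, 14.5% of all annotated genes and 19.1% of protein-coding genes had an H3K9me3 region within 1 kb of their start. When any of several starts of a gene could count, Snrpn and Mest joined them and the count was 12 of 15, both with all GENCODE transcript starts and with RefSeq starts where RefSeq gave one. RefSeq starts were placed for 12 of the 15, and Impact, Nespas and Peg10 kept their GENCODE start. The share of all annotated genes with any transcript start within 1 kb of H3K9me3 was 16.9%, and that of protein-coding genes 22.9%. Of the 4 RefSeq starts of Snrpn, only chr7:67150085 lay in H3K9me3, and the others were 2337 bp, 15290 bp and 294063 bp from it. The starts of Zrsr1, Mcts2 and Slc38a4 did not lie in H3K9me3, and their nearest regions were 6215 bp, 51884 bp and 188214 bp away.

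The sequences below show the letters that ZFP57 recognises in 11 of these regions, those off the chromosome of Impact with at least 1 match. Each line is the 120-base stretch of the region, free of annotated untranslated sequence, with the most matches to TGCCGC on either strand. All are on the forward strand of NCBIM37, with TGCCGC or its reverse complement GCGGCA in capitals.
Airn, chr17:12934628-12934747: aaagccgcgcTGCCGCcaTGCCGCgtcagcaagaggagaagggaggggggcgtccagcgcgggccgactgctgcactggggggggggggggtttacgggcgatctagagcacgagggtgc
Kcnq1ot1, chr7:150481564-150481683: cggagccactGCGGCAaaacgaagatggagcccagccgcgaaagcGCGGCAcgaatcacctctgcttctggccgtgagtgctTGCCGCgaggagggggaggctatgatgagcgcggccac
Peg3, chr7:6682383-6682502: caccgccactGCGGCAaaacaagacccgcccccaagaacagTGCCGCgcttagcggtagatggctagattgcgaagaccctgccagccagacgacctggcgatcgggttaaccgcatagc
Snrpn, chr7:67149234-67149353: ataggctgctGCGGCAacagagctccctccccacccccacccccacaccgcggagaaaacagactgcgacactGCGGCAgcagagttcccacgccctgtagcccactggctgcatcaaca
Mest, chr6:30687596-30687715: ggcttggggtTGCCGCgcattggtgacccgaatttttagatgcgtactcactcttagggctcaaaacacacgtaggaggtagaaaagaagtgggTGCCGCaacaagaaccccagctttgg
Plagl1, chr10:12810860-12810979: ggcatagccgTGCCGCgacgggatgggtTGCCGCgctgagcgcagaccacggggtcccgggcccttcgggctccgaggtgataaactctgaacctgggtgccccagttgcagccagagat
Grb10, chr11:11936874-11936993: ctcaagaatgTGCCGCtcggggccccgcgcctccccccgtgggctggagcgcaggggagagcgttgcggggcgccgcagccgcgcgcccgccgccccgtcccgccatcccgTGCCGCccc
Nnat, chr2:157386063-157386182: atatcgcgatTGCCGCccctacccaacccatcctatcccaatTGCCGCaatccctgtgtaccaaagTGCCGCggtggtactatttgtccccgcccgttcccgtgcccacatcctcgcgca
Nespas, chr2:174124883-174125002: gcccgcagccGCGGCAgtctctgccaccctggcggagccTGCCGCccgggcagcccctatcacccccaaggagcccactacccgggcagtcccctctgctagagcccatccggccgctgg
Peg10, chr6:4697914-4698033: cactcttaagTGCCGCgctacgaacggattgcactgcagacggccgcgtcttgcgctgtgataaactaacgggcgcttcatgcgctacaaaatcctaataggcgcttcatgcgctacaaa
Nap1l5, chr6:58854658-58854777: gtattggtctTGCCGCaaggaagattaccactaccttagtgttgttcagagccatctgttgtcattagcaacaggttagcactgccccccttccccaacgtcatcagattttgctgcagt

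The stretches from Nnat and Kcnq1ot1 held 3 matches each, those from Peg10 and Nap1l5 held 1, and the other 7 held 2. A match describes the letters and is not evidence of binding. Leaving out the chromosome of Impact, for which no stretch was taken, 9 of 12 control-region H3K9me3 regions (75.0%) contained such a stretch with at least 2 matches, against 527 of 31426 H3K9me3 regions in the list (1.68%). Among listed regions of at least 2 kb within 1 kb of a gene start the share was 160 of 1051 (15.2%), and 9 of 11 control regions of that width (81.8%) held such a stretch. In both sets the stretch of each region was the one with the most matches, and the sets were not matched for width.

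The letters were also counted over whole regions. Counting the Snrpn and Mest regions, 13 H3K9me3 regions lay at control-region starts, and 12 of them (92.3%) held TGCCGC, each at least 2 times, with 89 matches in all or 1.36 per kb. Among all 32502 H3K9me3 regions, 18.7% held the letters, at 0.270 per kb. Long regions and regions at gene starts hold more of these letters, and the 1079 listed regions that were at least 2 kb wide and within 1 kb of a gene start are the closest in kind. Their median width was 2800 bp, against 3600 bp for the 12 control regions of at least 2 kb, so the sets were not matched for width. Of the 1079, 834 (77.3%) held the letters and 555 (51.4%) held at least 2, at 0.564 matches per kb. In comparison, 12 of the 12 control regions of at least 2 kb did both, at 1.39 per kb. The median ratio of observed to expected CpG was 0.502 in the 13 control regions and 0.578 in those 1079 regions.

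The region at the Snrpn start that lay in H3K9me3, chr7:67147601-67150400, held 10 matches in 2800 bp, the highest density of the 13 at 3.57 per kb. Snrpn encodes a splicing protein and its promoter is the control region of the Prader-Willi and Angelman interval. The region over Nespas, the RNA antisense to Nesp in the Gnas cluster, held 14 matches in 7400 bp (chr2:174119601-174127000). The Mest promoter region at chr6:30684801-30690800 held 12 matches in 6000 bp, while a separate 1600 bp region at an upstream Mest start held 0. In Peg3 there were 8 matches in 3600 bp at chr7:6679601-6683200. At Kcnq1ot1 and Peg10 there were 3 matches each in 3600 bp and 3400 bp.

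**Figure D1:**
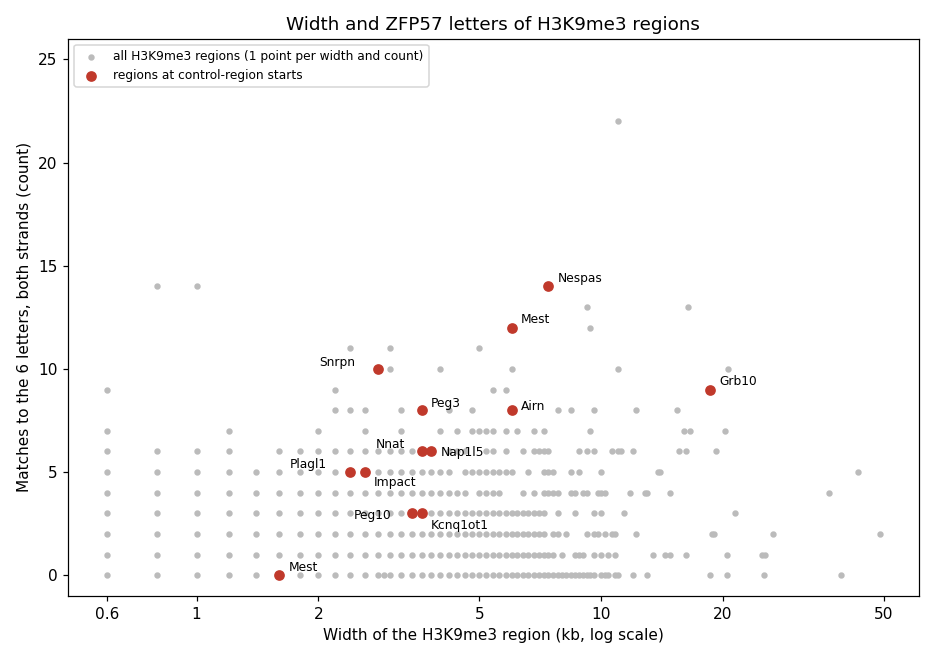
Width of each H3K9me3 region (x axis, kb, log scale) and its number of matches to the ZFP57 recognition letters on either strand (y axis, count). Grey points stand for all 32502 regions, with 1 point for each combination of width and count, and red points for the 13 regions at control-region starts; 12 of the 13 hold at least 3 matches and the 1600 bp Mest region holds 0.

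Away from control-region starts, 26 of the 203 H3K9me3 regions of the members (12.8%) held TGCCGC, at 0.196 per kb, and Kcnq1 lowered this value. Its 92 regions of this kind included 8 with the letters (8.70%), at 0.0924 per kb. In the other members 18 of 111 (16.2%) held them, at 0.274 per kb, close to the 0.270 per kb of the whole list. Over all 216 regions of the members the share was 17.6%, close to the 18.7% of the whole list, and without the 93 regions of Kcnq1, but with the other control regions, it was 23.6%. In the RefSeq promoters, which span 300 bases of the later assembly GRCm38, 12 of 34 members with an entry (35.3%) held the letters, against 13.1% of 27025 genes.

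Control-region H3K9me3 was also broad. The 13 regions had a median width of 3600 bp, compared with 800 bp in the whole list, where 10.9% of regions reached 2 kb. Among the 5064 listed regions within 1 kb of a gene start the median was 1000 bp and 21.3% reached 2 kb, as did 12 of the 13. Bins were kept only in genes, and some control-region starts, such as those of Airn, Nap1l5 and Nnat, lay inside another gene. There a region could extend upstream, and the part of this in the widths was not tested. Start regions of the members, control regions among them, also had a median of 3100 bp. The region across the 5′ part of Grb10, an adaptor that dampens insulin signalling, was 18600 bp wide (chr11:11920201-11938800), and 16 regions of the list were wider. It covered the GENCODE start and both RefSeq starts of the gene. The Nespas region was exceeded in width by 130 regions and those of Airn and Mest, both 6000 bp, by 236. Impact, at 2600 bp, and Plagl1, at 2400 bp, were among the narrower ones.

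**Figure D2:**
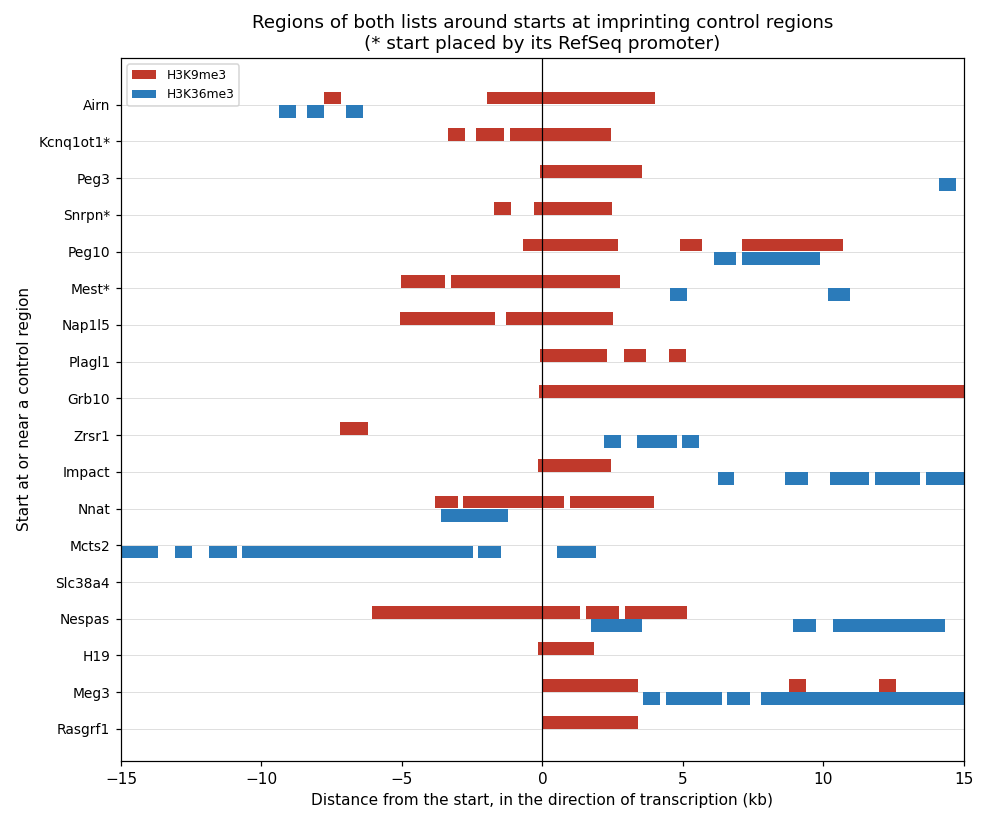
Regions of both lists within 15 kb of 18 starts at or near imprinting control regions (y axis), by distance from the start in the direction of transcription (x axis, kb). Red bars are H3K9me3 regions and blue bars H3K36me3 regions; H3K9me3 covers the start in every row except Zrsr1, Mcts2 and Slc38a4, and asterisks mark starts placed by a RefSeq promoter.

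H3K36me3 was within 1 kb of 1 of the 15 starts, that of Mcts2, at 517 bp. The background was 4.14% of all annotated genes and 2.62% of protein-coding genes, so this count does not set the control regions apart. It was 3 within 2 kb, against 8.83% of all genes and 9.20% of protein-coding genes, and 4 within 5 kb, against 17.7% and 21.5%. It was 3 with the starts of all transcripts, for which the background was 11.5% of all genes and 14.8% of protein-coding genes. The next were Nnat at 1214 bp, Nespas at 1737 bp and Zrsr1 at 2186 bp. The nearest to Slc38a4 was 38187 bp from its outermost start, and 13444 bp and 2590 bp from its other RefSeq starts. Zrsr1 and Mcts2 are paternally expressed retrogenes within introns of Commd1 and H13, and the H3K36me3 region inside each also lay in the host gene. The one over Mcts2, chr2:152513401-152514800, was 1 of 6 inside H13.

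H3K9me3 also stood far inside Inpp5f and Gnas, which are known to have imprinted internal promoters. They are examples, and no share of such genes was counted. Others differed: H13, the host of Mcts2, had no H3K9me3, and in Commd1 the region nearest the Zrsr1 start was 6215 bp from it. Inpp5f, a phosphoinositide phosphatase with an imprinted internal transcript, had a 3800 bp region at chr7:135829401-135833200, beginning 74559 bp after the gene start, with 6 matches to TGCCGC. In Gnas, which encodes the stimulatory G protein alpha subunit and several alternative products, a 4200 bp region at chr2:174151801-174156000 held 6 matches and covered 3 RefSeq starts of the gene.

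The control regions of H19, of the Dlk1-Meg3 cluster and of Rasgrf1 lie upstream of a gene and were almost out of reach of these lists. In the 5 kb before H19, 1 of 26 bins touched a gene (3.85%), in the 20 kb before Meg3 1 of 101 (0.990%) and in the 40 kb before Rasgrf1 1 of 201 (0.498%). The H3K9me3 region found in each stretch was the one that spanned the gene start, and there was no H3K36me3. Where start regions end was counted for the members only, and whether the same limit sets it was not tested. Of the 21 members whose start lay inside H3K9me3, 15 had a region that reached at most 200 bp, or 1 bin, upstream, and the 6 that reached further were Igf2, Airn, Peg10, Sgce, Nap1l5 and Nnat. Each of these 6 regions also overlapped another annotated gene, in the same order Igf2as, Igf2r, Sgce, Peg10, Herc3 and Blcap. Among the 15, the regions of H19 and Igf2r did so, with Mir675 and Airn.

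Over whole genes, H3K9me3 was found in a larger share of imprinted genes than of genes in general, with no test made. An H3K9me3 region was present in 32 of 41 members (78.0%), against a background of 28.3% of all annotated genes and 40.2% of protein-coding genes. H3K36me3 was present in 21 members (51.2%), against 23.2% and 34%. Both marks occurred in 15 members (36.6%), against 7.78% and 12.1%. The members were longer than other genes, with a median of 26530 bp against 5384 bp for all and 15427 bp for protein-coding genes, and the part of length in these shares was not tested. By bases, 12.5% of the span of the members was in the H3K9me3 list, compared with 3.41% of the span of all genes, whereas the H3K36me3 shares were 6.02% and 5.33%.

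H3K9me3 lay within 1 kb of the start of 22 members (53.7%), against the same 14.5%. H3K36me3 did so in 4 members, Rian, Mirg, Gnas and Mcts2 (9.76%), against the same 4.14%. The widths of the start regions ran from 600 bp in Phlda2 to 18600 bp in Grb10, with a median of 3100 bp. In Ndn the region began 38 bp after the start, and in the other 21 it covered it.

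The share with H3K9me3 at the start was the same for members known to be maternally and paternally expressed, at 6 of 9 and 14 of 21 (both 66.7%). It was 2 of 11 for members whose imprinting depends on tissue or isoform (18.2%), which were also the longest group at a median of 85098 bp. H3K9me3 anywhere in the gene was found in 7 of 9, 16 of 21 and 9 of 11, and H3K36me3 in 5 of 9, 9 of 21 and 7 of 11. The shares over all annotated genes were 14.5% for H3K9me3 at the start, 28.3% for H3K9me3 in the gene and 23.2% for H3K36me3. Over protein-coding genes they were 19.1%, 40.2% and 34%. The median length was 21008 bp for the maternal and 13209 bp for the paternal group, and the part of length was not tested. The 5 noncoding RNA genes had H3K36me3 in 4 and H3K9me3 in 3. Of all annotated genes that are not protein-coding, 6.88% had H3K36me3 and 10.4% H3K9me3, but these are mostly short, with a median of 466.5 bp against 30726 bp for the 5.

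**Figure D3:**
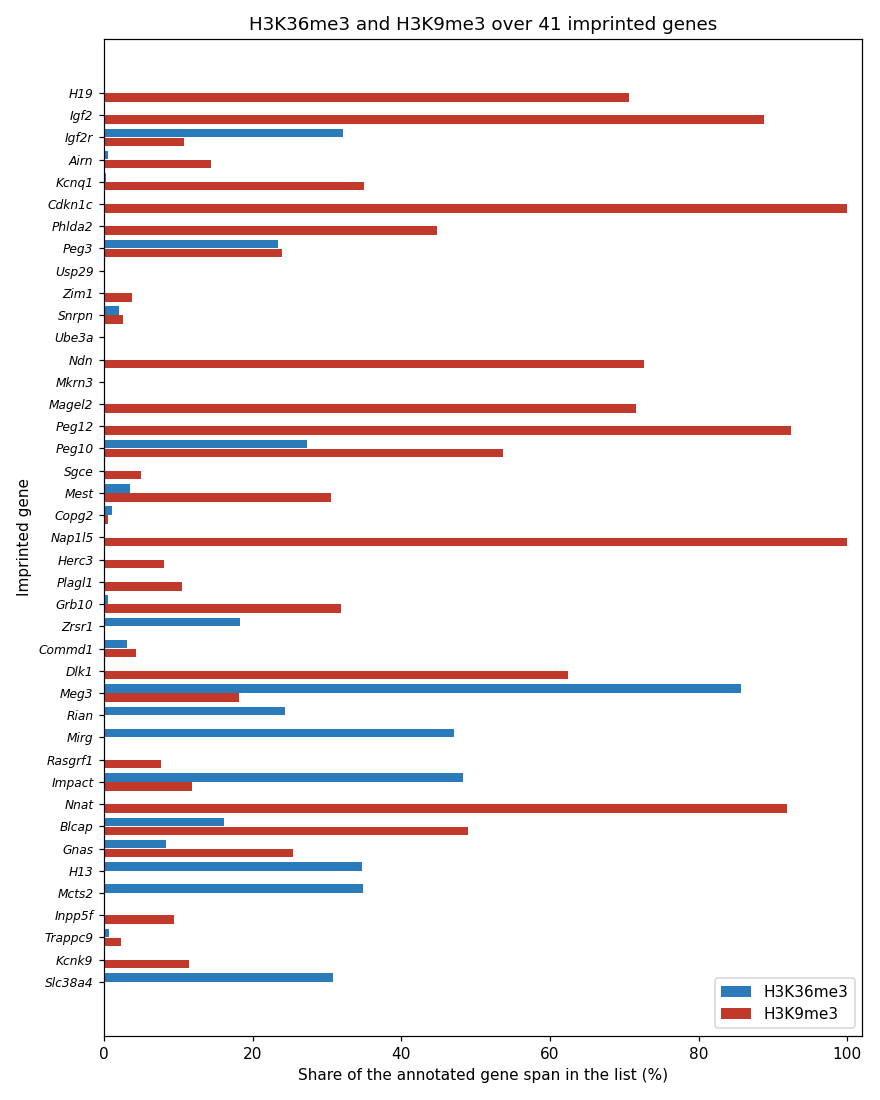
Share of the annotated span of each of 41 imprinted genes (y axis) that lies in the H3K36me3 list (blue) or the H3K9me3 list (red), in percent (x axis). Cdkn1c and Nap1l5 are at 100% H3K9me3 and Meg3 is at 85.7% H3K36me3; Usp29, Ube3a and Mkrn3 have neither mark.

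In 17 of 41 members (41.5%) H3K9me3 was present without H3K36me3, against 20.5% of all annotated genes and 28.1% of protein-coding genes. Several of these members were covered over much of their span. Cdkn1c, an inhibitor of cyclin-dependent kinases, and Nap1l5 were covered over 100% of their 2701 bp and 1893 bp. Peg12 was covered over 92.4%, Nnat, a brain proteolipid, over 91.8%, Igf2, the fetal growth factor, over 88.8% and H19, the maternal noncoding RNA of the same cluster, over 70.7%. Ndn and Magel2, MAGE family genes of the Prader-Willi interval, were at 72.6% and 71.6%, Dlk1, a Notch ligand-like protein, at 62.5% and Phlda2, a placental growth regulator, at 44.7%. Igf2 carried a single region of 14800 bp, from 3679 bp before the start to 11120 bp after it, and 25 regions in the list were wider. A 600 bp H3K36me3 region 3080 bp before the Igf2 start lay wholly within it.

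The other members of this kind had narrower cover. Kcnk9, a potassium channel, was at 11.4%, Plagl1, a zinc finger growth regulator, at 10.5%, Inpp5f at 9.40%, Herc3 at 8.10% and Rasgrf1, a Ras exchange factor, at 7.67%. Sgce, a sarcoglycan, was at 4.95% and Zim1, a zinc finger gene, at 3.81%. The regions of Herc3 were those around Nap1l5, which lies in a Herc3 intron. The start region of Sgce was that of Peg10, since the pair is transcribed divergently from 1 control region.

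In 6 of 41 members (14.6%) H3K36me3 was present without H3K9me3, close to the 15.4% of all annotated genes and below the 22% of protein-coding genes. These were Rian and Mirg, host RNAs for small nucleolar RNAs and microRNAs, the pair H13 and Mcts2, Zrsr1 and Slc38a4, an amino acid transporter. H3K36me3 covered 47.0% of Mirg, 34.8% of Mcts2, 34.7% of H13, 30.8% of Slc38a4, 24.3% of Rian and 18.3% of Zrsr1. In Slc38a4 it lay in 5 regions with 18800 bp in all, the first 38187 bp after the outermost start but 2590 bp after the innermost RefSeq start, so the distance depends on the gene model.

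Usp29, Ube3a and Mkrn3 had no region of either mark. The nearest H3K9me3 regions to their starts were 230671 bp, 402522 bp and 39839 bp away. Usp29 is annotated here as a gene of 2610 bp, while a RefSeq promoter places a start at the Peg3 promoter, so its value depends on the gene model. A background of 56.3% of all genes and 37.9% of protein-coding genes had neither mark.

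The Kcnq1 cluster held the most regions. Kcnq1, a potassium channel whose introns contain the Kcnq1ot1 promoter, had 93 H3K9me3 regions, or 43.1% of those in all members, and 5 genes of the annotation had more. They covered 111642 bp, or 34.9% of the gene, and the widest was 6000 bp. The region over the Kcnq1ot1 start at chr7:150482452 was chr7:150480001-150483600. H3K36me3 in Kcnq1 was a single 600 bp region. Neither Cdkn1c nor Phlda2, its neighbours in the cluster, had any.

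In 8 of 41 members (19.5%) an H3K9me3 region lay within 1 kb of the start and H3K36me3 in the gene only after it. By the same criterion the shares were 2.32% of all annotated genes and 3.71% of protein-coding genes. The criterion requires both marks, which 36.6% of members had, against 7.78% of all and 12.1% of protein-coding genes. The part of this and of gene length in the difference was not tested. In each of the 8 members the H3K9me3 region covered the start. Igf2r and Airn overlap on opposite strands, and their first H3K36me3 region was the same 600 bp, chr17:12951601-12952200. The gap between the end of the start region and the first H3K36me3 region was 200 bp in Meg3, 3400 bp in Peg10, 3800 bp in Impact, 8400 bp in Igf2r, 10600 bp in Peg3 and 13400 bp in Airn. It was 83200 bp in Grb10 and 153000 bp in Kcnq1, each of which, like Airn, had a single H3K36me3 region of 600 bp.

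Meg3, the maternal noncoding RNA of its cluster, showed the arrangement most fully. H3K9me3 covered the first 3389 bp, H3K36me3 began at 3590 bp, and a single H3K36me3 region ran for 23000 bp to the end of the gene (chr12:110787001-110810000), with 24 regions in the list wider. H3K36me3 covered 85.7% of Meg3 and H3K9me3 18.2%. Across Dlk1, Meg3, Rian and Mirg together H3K36me3 covered 41.6% of the span, none of it in Dlk1, the paternally expressed member.

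Impact, a paternally expressed translational regulator, had H3K9me3 over its first 2439 bp and 7 H3K36me3 regions from 6240 bp to 19639 bp, which covered 48.3% of the gene. Igf2r, the maternal receptor that clears insulin-like growth factor 2, had 21 H3K36me3 regions over 28000 bp (32.1%). The paternal antisense RNA Airn, which starts inside Igf2r, had a single 600 bp region (0.505%), and 14 H3K9me3 regions (14.3%). The 6000 bp region over the Airn start lies inside Igf2r and was 1 of the 4 H3K9me3 regions of Igf2r.

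**Figure D4:**
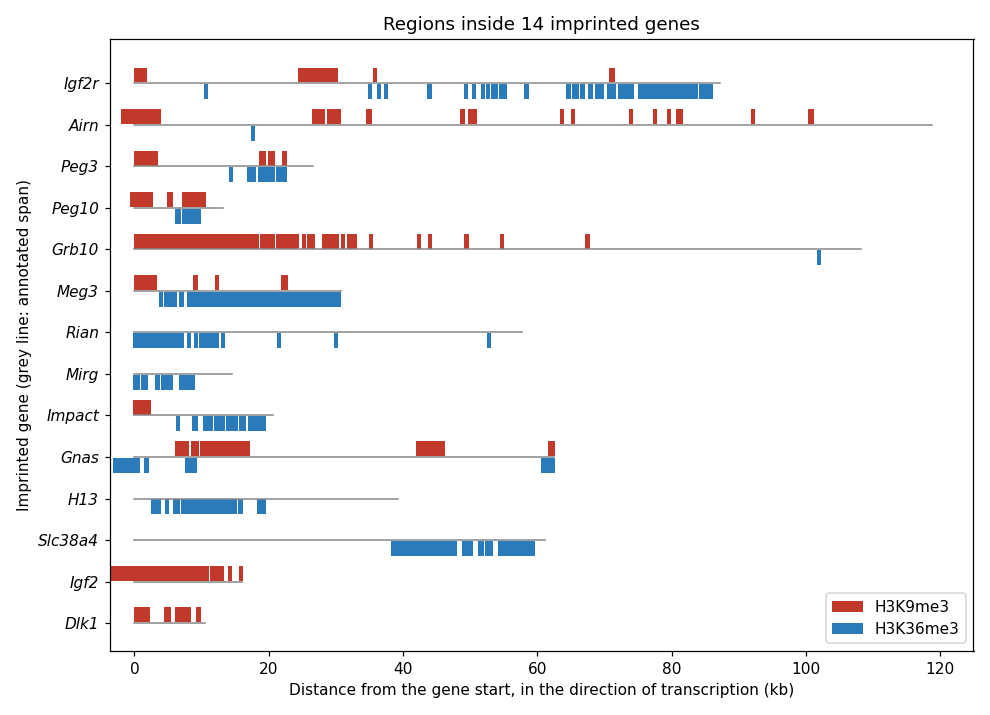
Regions inside 14 imprinted genes by distance from the gene start in the direction of transcription (x axis, kb). Grey lines are annotated spans, red bars H3K9me3 regions and blue bars H3K36me3 regions; H3K36me3 begins 3590 bp into Meg3, 6240 bp into Impact and 38187 bp from the outermost Slc38a4 start, and there is none in Igf2 or Dlk1.

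Some members carried both marks on the same bases. This was so in 7 of 41 (17.1%), against 4.68% of all genes and 7.14% of protein-coding genes. Peg3, a paternally expressed zinc finger protein, and Peg10, a gene derived from a retrotransposon, shared 2800 bp each, Gnas 2445 bp, Meg3 and Blcap 2200 bp each, and Igf2r and Copg2 800 bp each. In Peg10 a single 2800 bp H3K36me3 region, chr6:4704401-4707200, lay wholly in H3K9me3, and 2798 bp of it was coding. In Peg3 the shared bases lay in 3 H3K9me3 regions of 800 bp, 1000 bp and 1000 bp, of which 800 bp, 1000 bp and 881 bp were coding.

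Of the 14045 bp of the members in both lists, 45.7% was coding, compared with 11.4% of such bases over all genes. For each mark alone the members were close to other genes, at 12.3% against 13.7% for H3K36me3 and 7.96% against 8.39% for H3K9me3. Peg3 and Peg10 gave most of the shared coding bases, so the share describes those genes more than the other 5. In Copg2, a coat protein gene beside Mest, the shared 800 bp was a single region with the same ends in both lists, chr6:30754401-30755200, outside coding sequence.

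In Blcap, the shared bases lay beside Nnat, which sits in a Blcap intron. A 2400 bp H3K36me3 region at chr2:157382201-157384600 had 2200 bp in H3K9me3, in the 3′ part of Blcap and 1214 bp before the Nnat start. In Gnas the sharing was at 2 places, next to the Nespas region and at the 3′ end, where the same 1000 bp was in both lists. The Gnas start, the promoter of the Nesp transcript, lay in a 4000 bp H3K36me3 region with no H3K9me3.

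The remaining members with both marks kept them apart. Snrpn had H3K9me3 at 1 of its 4 RefSeq starts and at 2 further places (2.54%) and 4 H3K36me3 regions near its 3′ end (2.03%). Mest, a paternally expressed hydrolase-like protein, had 30.5% H3K9me3 and 3.44% H3K36me3, and Grb10 31.9% and 0.555%. Commd1, a regulator of copper handling, was at 4.33% and 3.12%, and Trappc9, a subunit of a vesicle transport complex and the longest member at 471584 bp, at 2.33% and 0.679%. The 7 H3K9me3 regions of Commd1 did not include the start of Zrsr1.

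Among 40 other imprinted genes found in the annotation, of 45 listed, H3K9me3 was present in 28 (70.0%), H3K36me3 in 11 (27.5%) and H3K9me3 within 1 kb of the start in 15 (37.5%). The shares over all annotated genes were 28.3%, 23.2% and 14.5%, and over protein-coding genes 40.2%, 34% and 19.1%, so that the H3K36me3 share lay between its backgrounds. Of 10 genes known to maintain imprints, 8 had H3K36me3, against the same 23.2% and 34%. H3K9me3 was present in 2 of the 10 (20%), against the same 28.3% and 40.2%. These were Zfp445 and Ctcf (these 2 were named after their values were seen). Zfp57, Trim28, Setdb1, Dnmt1, Uhrf1, Dppa3, Cbx5 and Atrx had none. As a check of the cell type, the pluripotency genes Pou5f1, Nanog and Sox2 held 1, 3 and 1 H3K36me3 regions and no H3K9me3. The lineage genes Gata4, Sox17 and T held no H3K36me3 but 12, 1 and 4 H3K9me3 regions, so H3K9me3 in this list was also found in developmental genes that are not imprinted.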

How the data were processed

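The deposited lists were made by the authors. Per the labels and the study's methods, reads of 4 libraries were aligned to mm9 with Bowtie (version 1.0.0 in the submitters' processing notes) under a limit on multiple alignments, duplicates were removed, and reads were scaled per library in 200 bp bins. The value distributions of the 2 cell types were then matched. Genic bins above a high percentile in either were kept, neighbours were joined with bedtools (2.20.1), and extreme read counts were removed. The deposited files hold 3 columns (chromosome, start and end) and no other value. Reads with many alignments were dropped, so repeated sequence is less likely to be listed, and regions stop near gene ends.

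Genes came from GENCODE M1 on NCBIM37, and the last region of chromosome 13 ended at 120284312, the length of that chromosome. The widths were at least 600 bp. A region counted for a gene from an overlap of 1 bp, and near a start within 1 kb. Starts were also taken from RefSeq promoter sequences (GRCm38) by exact unique match. The letters TGCCGC were counted on both strands (Python 3.11.15). The overlaps and start distances were checked on simulated data, and that check did not cover the motif counts. Members, gene lists and control regions were chosen with earlier results of these data known. Every member was named, and another gene only if it shared a region with a member or was in a fixed list. WT and G34R cells could not be compared, since the lists give no value per cell type. The control region at Peg13 was not analysed here.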

Additional observations from a re-analysis of the deposited data

How the results depend on the processing

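Most counts moved little with the definition of a gene, a start or a region: 38 of 48 alternatives stayed within 1.5 times the main value. Members with H3K36me3 ranged from 15 to 25, with H3K9me3 from 29 to 34 and with both marks from 10 to 21. H3K9me3 at the start ranged from 21 to 28 members and at control regions from 10 to 12 of 15. Values that moved further were those for shared bases, which were found in 11 members with 10 kb on both sides of the gene in place of 7 within it. H3K36me3 near a member's start rose from 4 to 11 (26.8%) with a window of 5 kb, against 17.7% of all and 21.5% of protein-coding genes. It was 8 (19.5%) with the 5′ ends of all transcripts, against 11.5% and 14.8%. Near control-region starts it went from 1 to 0 with a window of 500 bp, 3 with 2 kb, 4 with 5 kb and 3 with all transcripts. The share of H3K9me3 regions of members with TGCCGC, 17.6%, was 9.72% for at least 2 matches, 32.7% for regions of at least 1 kb and 8.80% in the central 600 bp. The whole list gave 18.7%, 5.97%, 31.1% and 11.6% in the same order, so the members stood below the list for any match and in the central 600 bp and above it otherwise. The use of RefSeq starts, and the share without Kcnq1, were chosen after seeing the data. The comparison of WT with G34R cells and its alternative were not run. No paired analysis was possible because each group had 1 library and the lists hold no value per library. Each region's enrichment is a threshold call with unknown depth, and absence from a list does not show absence of a mark.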
